A study of Mus musculus with 22 samples.

Results

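The genes described here are 39 immediate early and dissociation response genes of the mouse lung epithelium, out of 16674 genes measured in at least 1 library. They were taken by name from a list of such genes, many but not all of them known for rapid induction by growth factors, stress or cell dissociation. The list was chosen with earlier results of these data known, so counts of members beside the share of all genes are descriptions, not tests. Member values were read in all 22 libraries. All 39 were measured at 6 months and 36 at the embryonic stage E18.5, shortly before birth, where Fosl1, Egr3 and Dusp2 have no value. The study concerns NANCI, a long noncoding RNA transcribed beside Nkx2-1, the homeobox gene that specifies lung epithelium, and asks, by its title, how the pair keeps Nkx2-1 expression steady in lung development and homeostasis. Wild-type mice (WT; NANCI-+/+) had 3 libraries at each age. Mice homozygous for the NANCI-CreERT2:RFP allele (NANCI; NANCI-CreERT2:RFP/CreERT2:RFP) were sampled at E18.5 only, with 3 libraries. Mice with 1 Nkx2.1-GFP allele (Nkx; Nkx2.1-GFP/+) had 3 libraries at each age. Mice heterozygous for both alleles (Double; NANCI-CreERT2:RFP/+:Nkx2.1-GFP/+) had 3 libraries at E18.5 and 4 at 6 months. The labels name no inducer of the CreERT2 recombinase, and the sources used here do not give what part of each gene the alleles replace. The labels name no strain, no pooling and no litter, so each p-value reflects only variation among the sequenced libraries, which may be technical. E18.5 cells were pulled down on magnetic beads by the epithelial surface protein EpCAM, and 6-month cells were sorted as EpCAM+, CD45- and CD31-, a gate set against leukocytes and endothelial cells.

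Immediate early genes need no new protein for their induction. Kinases of the mitogen-activated protein kinase (MAPK) cascades and protein kinase A act on factors already bound at their promoters, chiefly the serum response factor with its ETS partners at CArG boxes and CREB at cyclic AMP response elements. The first products include the Fos and Jun families, which pair as the AP-1 transcription factor, and the EGR, NR4A and KLF factors. Others are inhibitors that end the response, such as phosphatases that inactivate MAPKs and ZFP36, which marks messenger RNAs with AU-rich elements for decay. Warm enzymatic digestion of a tissue is itself an inducer of these genes. The sources used here do not give how the lungs were dissociated, or for how long.

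The promoters of 5 members that the results turn on are shown first, because they carry the response elements named above. Of the 39 members, 32 matched a RefSeq promoter sequence (GRCm38.p6). Bases before the transcription start are given 5′ to 3′ on the strand of the gene, cut short where an exon of another transcript begins. Capitals mark cyclic AMP response element (CRE) cores (TGACG or its complement CGTCA), the full CRE TGACGTCA, the EGR site GCGGGGGCG or its complement, and the CArG box. Fos lies on the plus strand (chr12:85473640-85473889) and holds CRE cores 129 and 66 bases before its start.
Fos: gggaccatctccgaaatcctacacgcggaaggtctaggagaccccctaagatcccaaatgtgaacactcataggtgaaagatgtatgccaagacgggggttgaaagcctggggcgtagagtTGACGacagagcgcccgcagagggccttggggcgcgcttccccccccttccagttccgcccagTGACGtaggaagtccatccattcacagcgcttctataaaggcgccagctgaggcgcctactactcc
Fosb lies on the minus strand (chr7:19310052-19310295) and holds a CRE core 60 bases and an EGR site 50 bases before its start.
Fosb: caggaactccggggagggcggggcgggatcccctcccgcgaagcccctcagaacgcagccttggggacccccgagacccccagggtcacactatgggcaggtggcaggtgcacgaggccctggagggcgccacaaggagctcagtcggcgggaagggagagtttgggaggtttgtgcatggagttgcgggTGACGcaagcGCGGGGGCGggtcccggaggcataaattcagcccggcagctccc
The Egr2 window (plus strand, chr10:67537316-67537565) belongs to the first of 5 listed starts that has a CArG box, 72 bases before it.
Egr2: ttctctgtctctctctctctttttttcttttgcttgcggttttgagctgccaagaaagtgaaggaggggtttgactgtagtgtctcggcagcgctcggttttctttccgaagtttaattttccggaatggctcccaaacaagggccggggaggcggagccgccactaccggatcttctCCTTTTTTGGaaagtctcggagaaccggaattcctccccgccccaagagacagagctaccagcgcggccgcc
Nr4a1 (plus strand, chr15:101266596-101266845) holds CRE cores 233, 213, 69 and 40 bases and an EGR site 60 bases before its start.
Nr4a1: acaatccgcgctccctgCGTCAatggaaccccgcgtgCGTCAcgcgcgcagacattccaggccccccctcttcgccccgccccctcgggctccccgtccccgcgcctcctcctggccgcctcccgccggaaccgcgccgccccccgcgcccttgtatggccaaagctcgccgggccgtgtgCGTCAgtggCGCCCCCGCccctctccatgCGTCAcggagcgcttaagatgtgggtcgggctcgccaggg
Dusp1 (minus strand, chr17:26508520-26508722) holds a full CRE 143 bases and a further core 191 bases before its start.
Dusp1: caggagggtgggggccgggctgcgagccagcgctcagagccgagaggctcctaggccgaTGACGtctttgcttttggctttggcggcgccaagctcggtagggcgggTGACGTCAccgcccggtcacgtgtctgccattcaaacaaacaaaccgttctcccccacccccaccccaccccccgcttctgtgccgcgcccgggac

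In the 250 bases before the start, searched on both strands, TGACG was found in 18 of the 32 members with a sequence and in 19.8% of all 27025 genes. The full element TGACGTCA, which contains TGACG, was found in Btg2, Dusp1, Maff and Ppp1r15a, and in 1.77% of all genes. The EGR site GCGGGGGCG was found in 8 members (Dusp2, Fosb, Fosl2, Klf2, Klf4, Nr4a1, Socs3 and Zfp36) and in 2.93% of all genes. A CArG box was found in Dusp5, Egr2 and Zfp36 and in 1.62% of all genes. The AP-1 site TGACTCA was found in 1 member, Csrnp1, and in 5.16% of all genes. These are matches of letters in short windows and not measured binding, and sites farther from the start were not searched. Egr2 has 5 listed starts and is counted among the members with TGACG, although the window printed above holds none. No entry was matched for Egr1, Egr3, Fosl1, Hbegf, Ier2, Klf10 and Myc.

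Expression is given as log2 values normalized separately within each age, so a level or a difference of 1 is a factor of 2, and levels are compared neither between the ages nor between genes. Differences between groups are log2 fold changes ± SE from limma, which fits 1 model to all groups of an age, and a gene passes at a Benjamini-Hochberg adjusted p under 0.05 over all genes of that age. No read totals are given, so the depth of each library is unknown. The level of Nkx2-1 itself overlapped between the 4 E18.5 groups (14.48 to 14.95 over all libraries). At 6 months it was 13.77 to 13.96 in Nkx libraries, all below the WT libraries at 14.17 to 14.55, and 13.75 to 14.43 in Double libraries, which overlapped both. The adult Nkx difference from WT, −0.52 ± 0.17, did not pass (adjusted p = 0.128). Xist and Y-linked genes gave male and female patterns that were unevenly spread. The female libraries at E18.5 were 2 of 3 WT, 0 of 3 NANCI, 2 of 3 Nkx and 2 of 3 Double, and at 6 months 1 of 3 WT, 2 of 3 Nkx and 4 of 4 Double. Not every library was clear. E18.5 Nkx replicate 3, taken as male, had Xist at 11.34, against 7.21 to 8.48 in the other male E18.5 libraries. Whether any library mixed the sexes is not known. Epcam lay at 12.78 or above and the epithelial cadherin gene Cdh1 at 14.85 or above in every library. Some libraries stood apart over the members as a whole. NANCI replicate 1 was the lowest of its group in 32 of 36 members, with a mean over members of 11.19 against 11.62 and 11.7 in the other two. Among 6-month WT libraries, replicate 3 was lowest in 26 of 39 members, with a mean of 11.62 against 12.17 and 12.13. The 6-month Double libraries had means of 10.89, 11.08, 11.48 and 11.8, replicate 1 being the lowest for 26 members and replicate 4 the highest for 25. The median SD within groups was 0.42 for the members and 0.27 for all genes at 6 months, and 0.28 for both at E18.5.

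In adult Double mice the response genes lay lower than in WT. Of the 39 members, 19 fell and 3 rose, where 36.3% of all genes passed in either direction, 17.9% lower and 18.4% higher. The median log2 fold change over the members was −0.71, against 0.06 over all genes. It was −0.39 with the sex pattern as a covariate and −0.25 between female libraries alone, of which WT has 1. By role, 5 of 9 AP-1 subunits fell and 1 rose, 7 of 12 zinc finger and nuclear receptor factors fell and 2 rose, 3 of 9 IER genes and stress adaptors fell, and 4 of 9 feedback inhibitors and RNA decay factors fell. All Double libraries lay below all WT libraries in 13 members (18.9% of all genes) and above them in 2 (21.1%).

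Adult Double libraries differed from WT in the markers of several cell types, and these values stand beside every adult Double result. By the median log2 fold change of a list, endothelial markers differed most (−3.29). The log2 of the summed level of 14 endothelial markers ranged over 15.33 to 16.49 in WT, 14.65 to 15.63 in Nkx and 12.24 to 13.34 in Double libraries. All 14 markers fell in Double against WT, none was at the lowest value of a library, and Pecam1, which encodes the CD31 of the sort gate, lay at 12.2 to 13.52 in WT and 9.27 to 10.85 in Double libraries. Of 13 mesenchymal markers, 10 fell and 1 rose, with a summed level of 13.85 to 14.71 in WT and 12.68 to 13.64 in Double. Leukocyte markers without the lysozyme gene Lyz1, which alveolar type 2 cells also express, ranged over 11.54 to 12.06 in WT and 11.16 to 14.08 in Double. Markers of alveolar type 2 cells, the surfactant makers, ranged over 22.08 to 22.19 in WT and 19.99 to 21.66 in Double, and 8 of 10 fell. All 10 markers of ciliated cells fell (15.85 to 16.32 in WT and 14.63 to 15.35 in Double), as did 6 of 10 of the flat alveolar type 1 cells (16.99 to 17.79 and 16.1 to 16.67). Of 12 general epithelial markers, 9 rose and 1 fell (17.21 to 17.28 in WT and 17.79 to 18.22 in Double). Of 9 markers of airway secretory cells, 3 rose and 1 fell (19.65 to 21.05 in WT and 20.76 to 21.93 in Double). Among them the mucin gene Muc5b differed by 5.87 and Bpifa1 by −4.35. The part of any of these cells, or of the sex pattern, in the member differences was not tested. In these bulk libraries fewer cells of a type and less RNA per cell cannot be told apart.

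**Figure D1:**
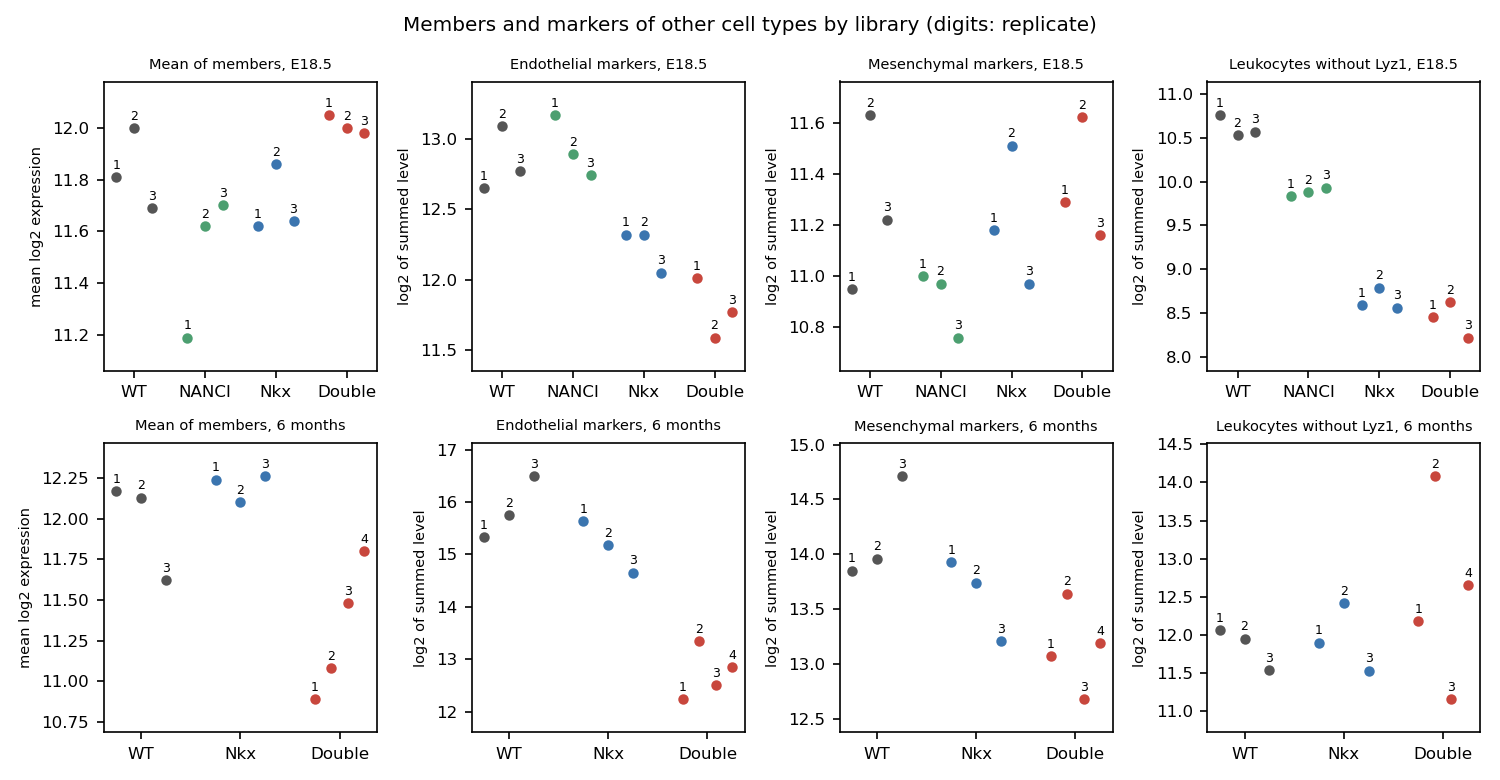
Mean log2 expression over the members (left column) and the log2 of the summed level of endothelial, mesenchymal and leukocyte markers (other columns) in each library, at E18.5 (top) and 6 months (bottom), with digits for the replicate. At 6 months the 4 Double libraries lie at 12.24 to 13.34 for endothelial markers, below all WT and Nkx libraries, while WT replicate 3 has the highest endothelial level and the lowest member mean of its group.

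Among the AP-1 subunits, Fosb differed most. Fosb (ENSMUSG00000003545) encodes a Fos subunit that pairs with Jun proteins. It lay at 14.32, 14.42 and 13.14 in WT and at 10.5, 12.02, 11.79 and 12.41 in Double libraries. Every Double library was below every WT library, and Fosb fell by 2.28 ± 0.41 on the log2 scale (4.86-fold, adjusted p = 0.00136). Jun (ENSMUSG00000052684), the founding Jun subunit, lay at 16.82, 16.31 and 15.83 in WT and at 14.35, 14.8, 15.32 and 15.27 in Double libraries. The groups did not overlap, and Jun fell by 1.39 ± 0.28 (adjusted p = 0.00241). Fos (ENSMUSG00000021250), the classical immediate early gene, was at 16.16, 16.2 and 15.24 in WT and at 13.76, 14.33, 14.69 and 15.27 in Double libraries. WT replicate 3 lay just under Double replicate 4, so the groups overlapped slightly, and Fos fell by 1.35 ± 0.33 (adjusted p = 0.00844). Junb and Jund, the other Jun subunits, fell by 0.82 and 0.73. The Fos-related Fosl2 went the other way and rose by 0.65 ± 0.20 (adjusted p = 0.0228). Atf3, a stress-induced partner of the family, differed by −0.80 (adjusted p = 0.11), the small Maf gene Maff by −0.25 and Fosl1 by 0.35. Fosl1 had the largest spread within groups of any member, with an SD of 1.66.

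Among the zinc finger and nuclear receptor factors, Egr3 and Klf2 differed most. Egr3 (ENSMUSG00000033730), an EGR factor induced by MAPK signals, was a low gene here, at 6.45, 7.4 and 6.14 in WT and at 3.81, 1.71, 4.55 and 4.1 in Double libraries. The groups were apart, and the log2 fold change was −3.12 ± 0.68 (adjusted p = 0.00419). Klf2 (ENSMUSG00000055148), known for its induction by blood flow in endothelial cells, was at 12.04, 12.29 and 12.27 in WT and at 9.56, 10.51, 10.11 and 10.51 in Double libraries. The WT libraries differed little among themselves and all lay above the Double libraries, and Klf2 fell by 2.03 ± 0.20 (adjusted p = 2.85e-05), beside the lower endothelial markers given above. Klf4, another KLF factor that endothelial cells express too, fell by 1.43 ± 0.23 (adjusted p = 0.000704). WT replicate 3 was the lowest WT library in 26 of 39 members, Fos, Jun and the EGR factors among them. Klf2 and Klf4 were among the members where it was not, as were Sgk1 and Dusp2. Whether this has to do with the endothelial markers was not tested.

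Nr4a1 (ENSMUSG00000023034), an orphan nuclear receptor induced without a ligand, was at 13.65, 13.95 and 12.62 in WT and at 10.55, 12.34, 12.81 and 12.22 in Double libraries. WT replicate 3 lay below Double replicate 3, so the groups overlapped, and Nr4a1 fell by 1.42 ± 0.45 (adjusted p = 0.0289). Egr2 (ENSMUSG00000037868), an EGR factor also known from hindbrain and Schwann cells, was at 8.37, 9.18 and 7.97 in WT and at 6.41, 7.52, 7.4 and 7.93 in Double libraries. The groups did not overlap, by a narrow margin, and Egr2 fell by 1.19 ± 0.36 (adjusted p = 0.0231). Egr1 (ENSMUSG00000038418), the most studied of the EGR factors, was at 14.3, 14.69 and 13.5 in WT and at 12.67, 13.32, 13.99 and 14.25 in Double libraries. Its groups overlapped, and the difference of −0.61 ± 0.35 did not pass (adjusted p = 0.199). Csrnp1, a nuclear factor induced by the AXIN pathway, fell by 1.23 and Klf6 by 0.71. Against that direction, Myc, the growth-promoting factor, rose by 1.28 ± 0.36 (adjusted p = 0.0172), from a mean of 8.25 ± 0.40 (SD, n = 3) in WT to 9.53 ± 0.78 (SD, n = 4) in Double libraries. Klf10, a TGF-beta-inducible KLF factor, rose by 0.82 ± 0.17 (adjusted p = 0.00288), and all its Double libraries lay above all WT libraries. Nr4a2 differed by 0.63 and Nr4a3 by −0.48, and neither passed.

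Of the IER genes and stress adaptors, Ppp1r15a (ENSMUSG00000040435), also called GADD34, directs a phosphatase to eIF2alpha to restart translation after stress. Its level was 12.78, 12.33 and 11.97 in WT and 10.33, 10.9, 10.98 and 10.66 in Double libraries. The groups were well apart, and Ppp1r15a fell by 1.64 ± 0.20 (3.12-fold, adjusted p = 8.84e-05). Ier3 (ENSMUSG00000003541), an early response gene that modulates survival signals, was at 11.93, 12.4 and 11.49 in WT and at 10.32, 10.92, 10.66 and 10.85 in Double libraries. Again no library of one group reached the other, and Ier3 fell by 1.25 ± 0.20 (adjusted p = 0.000541). Rhob fell by 0.74. The other members of the class did not pass and spanned −0.58 (Ier2) to 0.36 (Hbegf, an EGF receptor ligand). Among them the anti-apoptotic Mcl1 differed by −0.04.

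Of the feedback inhibitors, the dual-specificity phosphatase genes Dusp1 and Dusp2, whose products switch off MAPKs, differed most. Dusp1 (ENSMUSG00000024190) was at 14.84, 14.82 and 13.91 in WT and at 12.54, 13.06, 13.38 and 13.5 in Double libraries. Every Double library was below every WT library, and Dusp1 fell by 1.40 ± 0.26 (adjusted p = 0.0015). Dusp2 (ENSMUSG00000027368), a low gene, was at 6.14, 6.14 and 6.28 in WT and at 4.17, 2.22, 4.55 and 3.65 in Double libraries. The spread among Double libraries was wide but did not reach WT, and Dusp2 fell by 2.54 ± 0.69 (adjusted p = 0.0139). Zfp36 (ENSMUSG00000044786) was at 14.79, 15.08 and 14.02 in WT and at 12.69, 13.35, 13.99 and 14.35 in Double libraries. Its groups overlapped, and it fell by 1.03 ± 0.36 (adjusted p = 0.0406). Socs3 (ENSMUSG00000053113), an inhibitor of cytokine receptor signals, was at 14.26, 14.12 and 13.48 in WT and at 12.78, 12.82, 13.06 and 13.87 in Double libraries. Double replicate 4 lay above WT replicate 3, and Socs3 fell by 0.82 ± 0.27 (adjusted p = 0.0335). The remaining 5 inhibitors did not pass. They were Nfkbia, which encodes the inhibitor IkB-alpha, at −0.26, the antiproliferative Btg2 and Btg1 at −0.24 and 0.18, the ERK phosphatase gene Dusp5 at 0.20 and Zfp36l1 at 0.35.

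The calls against WT depended on the sex pattern and on single libraries. With the sex pattern as a covariate, 3 members rose and 9 fell, and 11 of the 22 calls stood, those of Fosb, Jun, Egr3, Klf2, Klf4, Klf10, Myc, Ier3, Ppp1r15a, Dusp1 and Dusp2. Fos (−0.92, adjusted p = 0.101), Egr2 (−0.86, 0.181) and Nr4a1 (−1.01, 0.209) were among those lost. Between female libraries alone, with a single WT library, 1 member rose and 3 fell. Leaving out single libraries ended calls as well. Without WT replicate 2, 14 members passed, and the calls of Egr2 (−0.85, adjusted p = 0.114), Nr4a1 (−1.15, 0.119), Myc (1.10, 0.0734), Junb, Jund, Klf6, Socs3 and Zfp36 were lost. Without WT replicate 1, Nr4a1 (−1.30, 0.0875), Csrnp1 (−1.02, 0.0594), Junb, Jund, Klf6, Socs3 and Zfp36 were lost, and without WT replicate 3 Myc (1.25, 0.0513) and Fosl2 (0.58, 0.0801). Double replicate 1 ended the calls of Junb, Jund, Klf6, Socs3 and Zfp36, Double replicate 2 the same without Klf6, and Double replicate 3 that of Socs3.

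**Figure D2:**
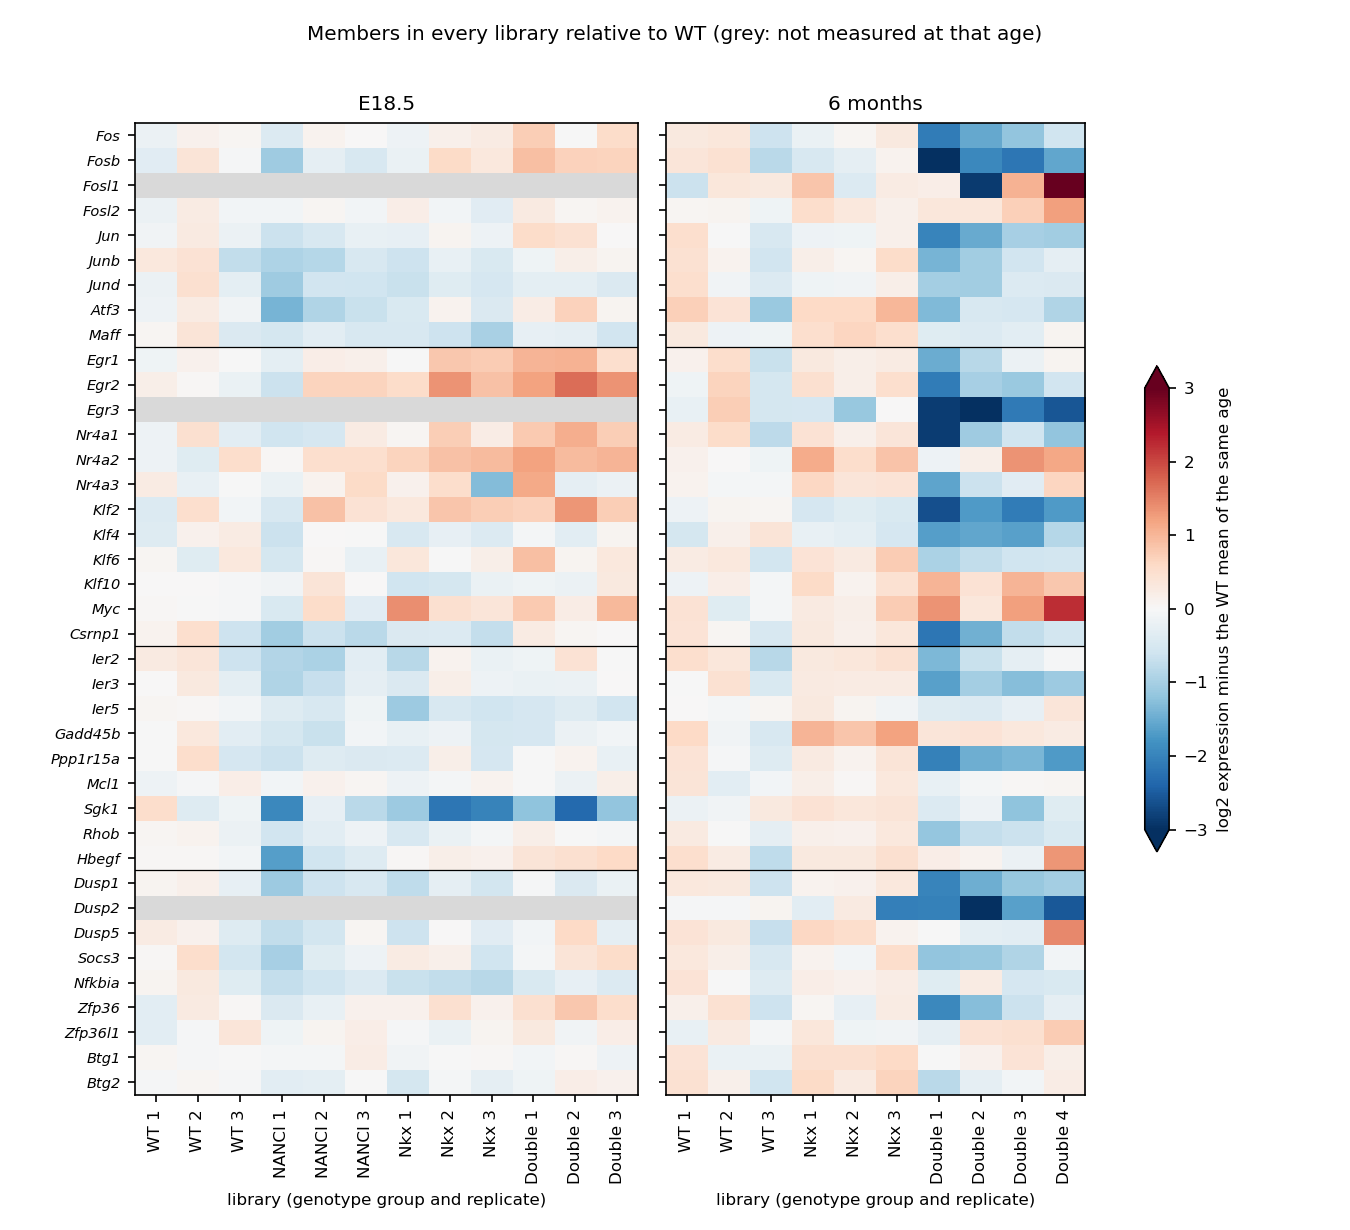
Log2 expression of each member in each library minus the WT mean of the same age, with rows in role order (AP-1 subunits, zinc finger and nuclear receptor factors, IER and stress adaptors, feedback inhibitors and RNA decay factors), E18.5 at left and 6 months at right, blue lower and red higher. The 4 adult Double columns are blue in 33, 30, 30 and 23 of 39 members, with Fosl2, Myc and Klf10 red. At E18.5 the first NANCI column is blue in 35 of 36 members.

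Against adult Nkx mice, which carry the same Nkx2.1-GFP allele, the members of Double libraries were lower too, and no WT level enters this difference. Of the 39 members, 20 fell and 0 rose, where 21.7% of all genes passed in either direction, 11.5% lower and 10.2% higher. The median log2 fold change was −0.94 against 0.035 over all genes, and 26 members had all 4 Double libraries below all 3 Nkx libraries (15.7% of all genes). Markers of several cell types differed here too, with all 14 endothelial and all 10 ciliated markers lower in Double than in Nkx. Of the alveolar type 1 and type 2 markers, 7 of 10 and 6 of 10 fell. Of 13 mesenchymal markers 7 fell and 1 rose, and of 12 general epithelial markers 9 rose and 1 fell. Of 9 secretory markers, 1 rose and 3 fell. The part of these cells in the member differences was not tested. This comparison has 2 female Nkx libraries, and with the sex covariate 19 members passed, all lower. Between female libraries alone, 14 fell. Without Nkx replicate 3, Fos (−1.28, adjusted p = 0.0502), Atf3 (−1.40, 0.0509), Nr4a1 (−1.71, 0.056), Egr3 (−2.29, 0.0806), Junb, Gadd45b and Socs3 no longer passed, and without Nkx replicate 1 Junb, Egr3, Nr4a1, Gadd45b and Socs3.

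Ppp1r15a stood at 12.62, 12.47 and 12.75 in Nkx, close together and above all Double libraries, a difference of −1.90 ± 0.20 (adjusted p = 0.000146). Fosb, at 13.47, 13.7 and 14.06 in Nkx, differed by −2.06 ± 0.41 (adjusted p = 0.00474), and Jun, at 16.16, 16.2 and 16.47, by −1.34 ± 0.28 (adjusted p = 0.00555). For Fos the Nkx libraries were at 15.66, 15.93 and 16.16, so that here the groups did not overlap, and it fell by 1.40 ± 0.33 (adjusted p = 0.012). Atf3 (ENSMUSG00000026628) was at 14.43, 14.45 and 14.84 in Nkx, at 12.53, 13.36, 13.34 and 12.94 in Double and at 14.56, 14.25 and 12.72 in WT libraries. Its Double libraries were all below Nkx, but 3 of the 4 lay above WT replicate 3. Atf3 fell by 1.53 ± 0.37 against Nkx (adjusted p = 0.0123).

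Nr4a1 was tight in Nkx, at 13.83, 13.55 and 13.76, and fell by 1.73 ± 0.45 in Double (adjusted p = 0.0185). Egr2 was at 8.99, 8.68 and 9.02 in Nkx and fell by 1.58 ± 0.36 (adjusted p = 0.00946). Klf2 was at 11.7, 11.84 and 11.75 in Nkx and fell by 1.59 ± 0.20 (adjusted p = 0.000404). All 3 genes had every Double library below every Nkx library. Egr1, at 14.45, 14.35 and 14.4 in Nkx, was likewise higher there than in each Double library, but the difference of −0.84 did not pass (adjusted p = 0.112). Dusp1, at 14.63, 14.66 and 14.85 in Nkx, fell by 1.59, and Ier3, at 12.2, 12.18 and 12.18, by 1.5. Egr3, at 6.15, 5.52 and 6.67 in Nkx, fell by 2.57, and Socs3, at 14.07, 13.88 and 14.47, by 1.01. Maff, Junb, Klf4, Klf6, Csrnp1 and Rhob also fell, by 0.80 to 1.49. Dusp2 (5.88, 6.45 and 4.14 in Nkx, a difference of −1.84) and Zfp36 (14.69, 14.39 and 14.88, a difference of −1.06) did not pass, at adjusted p = 0.0799 and 0.054. Myc differed by 0.88 and Klf10 by 0.44, and neither passed against Nkx.

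Gadd45b and Sgk1 separated the adult genotypes in another order. Gadd45b (ENSMUSG00000015312), which binds an upstream kinase of JNK and p38 signals, was at 12.5, 11.78 and 11.41 in WT, at 12.92, 12.73 and 13.1 in Nkx, and at 12.25, 12.3, 12.21 and 12.15 in Double libraries. All Nkx libraries were above all others. Gadd45b rose by 1.02 ± 0.22 in Nkx against WT (adjusted p = 0.0347) and fell by 0.69 ± 0.20 in Double against Nkx (adjusted p = 0.0317), a call kept in 11 of 19 alternatives and lost without Nkx replicate 1 or 3 or Double replicate 1, 3 or 4. Sgk1 (ENSMUSG00000019970), a kinase induced by serum and glucocorticoids that acts on epithelial sodium channels, was at 10.95, 11.01 and 11.42 in WT, at 11.56, 11.46 and 11.51 in Nkx, and at 10.71, 10.97, 9.93 and 10.77 in Double libraries. Nkx libraries were again the highest. Sgk1 fell by 0.92 ± 0.21 in Double against Nkx (adjusted p = 0.0106) and differed by −0.53 from WT (adjusted p = 0.0733).

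Between adult Nkx and WT mice, Gadd45b was the 1 member that passed, where 2.63% of all genes did (1.52% higher, 1.11% lower), and its call was lost without WT replicate 2, WT replicate 3 or any 1 Nkx library. The median over the members was 0.25 against 0.01 over all genes, with 32 members above 0 and 7 below. Without WT replicate 3, the lowest WT library in most members, the median was 0.02. It was 0.38 with the sex covariate and 0.55 between female libraries alone. Of the members, 7 had all Nkx libraries above all WT libraries and 1, Klf2, all below (16.1% and 14.4% of all genes). Fos, Jun and Zfp36 differed by 0.05, −0.05 and 0.03. Atf3 (0.73), Nr4a2 (0.83) and Maff (0.55) were the largest positive differences that did not pass. The 14 endothelial and 13 mesenchymal markers were all below 0, with medians of −0.74 and −0.55, and none passed. Of 12 general epithelial markers, 10 were above 0 and 2 below, and 1 rose. Of 9 secretory markers, 8 were above 0 and 1 below, and 1 rose. Their part in the member differences was not tested.

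**Figure D3:**
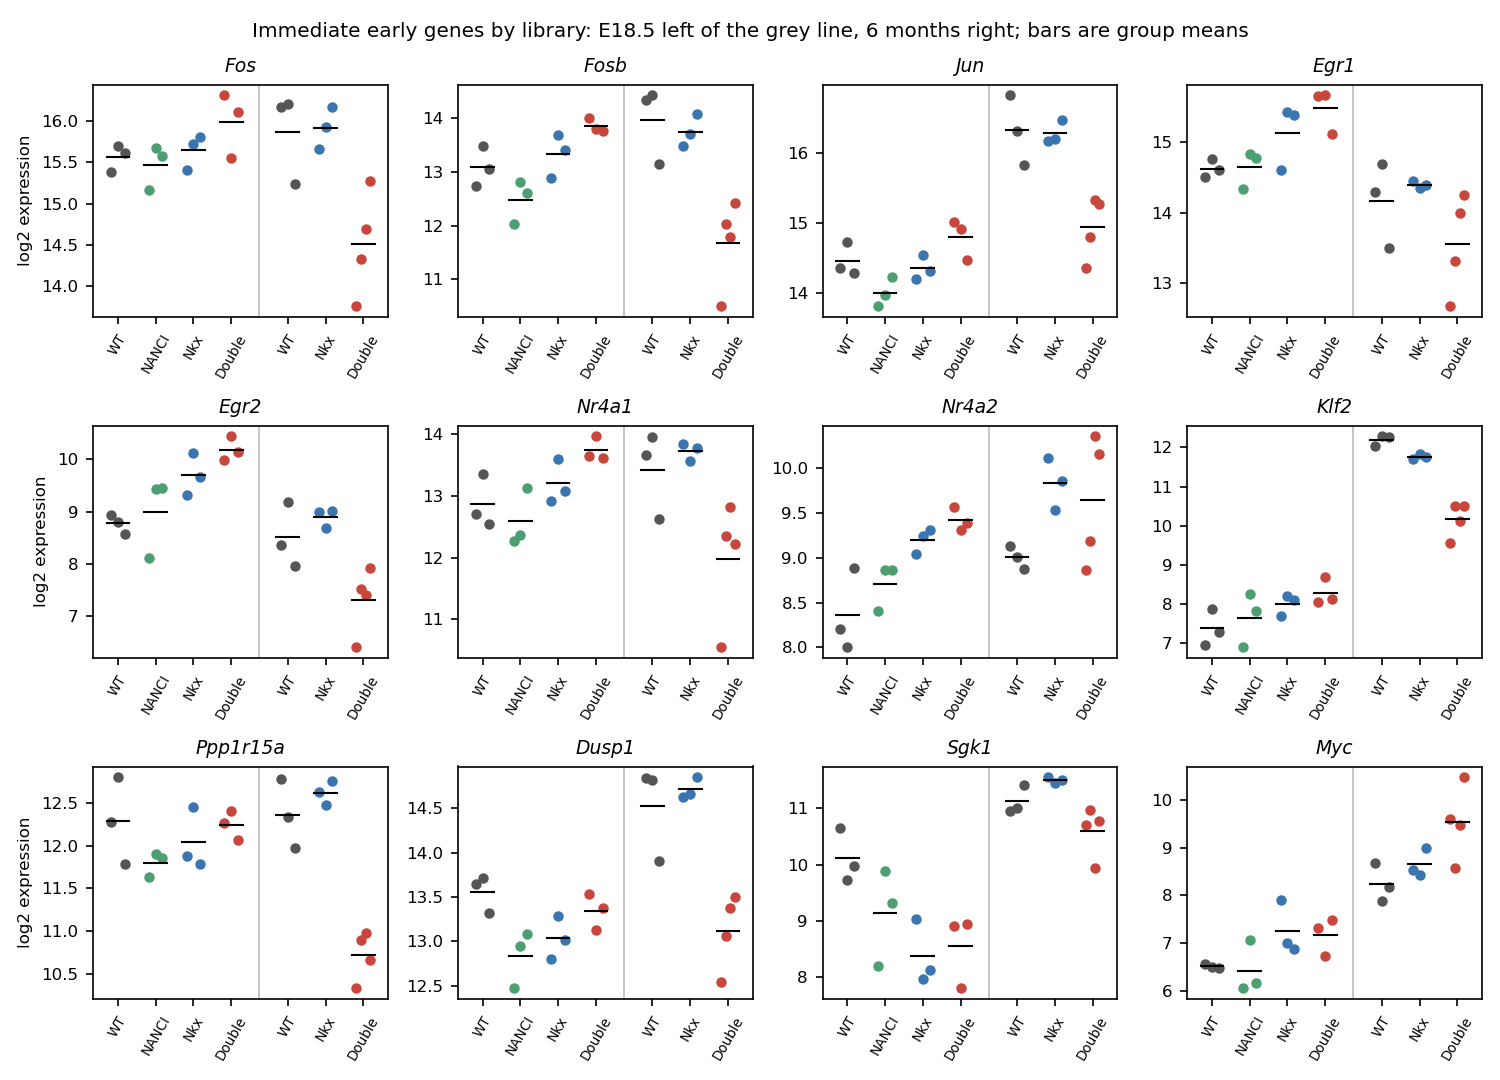
Log2 expression of 12 members in every library, each point 1 library and each bar a group mean, E18.5 left of the grey line and 6 months right, each panel on its own axis. For Fosb, Jun, Klf2, Ppp1r15a and Dusp1 the 4 adult Double points lie below all adult WT and Nkx points, while at E18.5 the Double points of Egr1, Egr2, Nr4a1 and Nr4a2 lie above the WT points.

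In E18.5 Double mice Egr1, Egr2, Nr4a1 and Nr4a2 rose against WT, and Sgk1 fell. These were 5 of 36 members, where 14.6% of all genes passed in either direction (7.13% higher, 7.47% lower), so the share of members that passed was near that of all genes. All 4 that rose were zinc finger and nuclear receptor factors, and no AP-1 subunit or feedback inhibitor passed. Fosb, an AP-1 subunit, and Zfp36, of the feedback and RNA decay class, fell just short of passing, at adjusted p = 0.0594 and 0.0612. The median over the members was 0.10 against 0.02 over all genes. It was 0.18 without WT replicate 1, 0.23 without WT replicate 2 and 0.04 without WT replicate 3. Double libraries lay above all WT libraries in 9 members (14% of all genes) and below them in 2 (13.3%).

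Egr2 was at 8.94, 8.8 and 8.58 in WT and at 9.98, 10.44 and 10.13 in Double libraries at E18.5. The groups were well apart, and Egr2 rose by 1.41 ± 0.32 (2.66-fold, adjusted p = 0.0112). Egr1 was at 14.5, 14.76 and 14.6 in WT and at 15.65, 15.67 and 15.12 in Double libraries. All Double libraries were higher, and Egr1 rose by 0.86 ± 0.23 (adjusted p = 0.0263). Nr4a1 was at 12.7, 13.35 and 12.54 in WT and at 13.64, 13.96 and 13.61 in Double libraries. These groups did not overlap either, and Nr4a1 rose by 0.87 ± 0.26 (adjusted p = 0.0417). Nr4a2, an orphan receptor related to Nr4a1, at 8.21, 8.0 and 8.89 in WT and 9.57, 9.31 and 9.39 in Double libraries, rose by 1.06 ± 0.23 (adjusted p = 0.00861). The 4 genes are of 2 families of factors, and Nr4a3, the third NR4A gene, differed by 0.24 (adjusted p = 0.824) with one of the widest spreads of any member (SD 0.66).

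The Egr2 call was kept in 20 of 21 alternatives and that of Nr4a2 in 19, both lost between female libraries alone, where no member passed, and that of Nr4a2 also with the 2 groups fitted alone (adjusted p = 0.0536). The Nr4a1 call was kept in 9, at 0.68 to 1.12 on the log2 scale, and ended without any 1 Double library, WT replicate 1 or 3, NANCI replicate 2 or Nkx replicate 3, libraries that all enter the estimate of the spread. That of Egr1 was kept in 16, at 0.77 to 1.04, and ended without WT replicate 1, Double replicate 1 or Double replicate 2. Without WT replicate 1, 2 members rose and none fell, and without Double replicate 2 the numbers were the same.

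Fos at E18.5 was at 15.38, 15.69 and 15.61 in WT and at 16.31, 15.55 and 16.11 in Double libraries, a difference of 0.43 ± 0.21 that did not pass (adjusted p = 0.21). Double replicate 2 lay inside the WT range. Jun was at 14.35, 14.73 and 14.28 in WT and at 15.01, 14.91 and 14.47 in Double libraries. Its groups overlapped, with a difference of 0.35 (adjusted p = 0.246). Fosb was at 12.74, 13.48 and 13.05 in WT and at 13.99, 13.79 and 13.75 in Double libraries. All Double libraries were above WT, with a difference of 0.75 ± 0.25 (adjusted p = 0.0594). Klf2 (0.92, adjusted p = 0.103) and Zfp36 (0.60, adjusted p = 0.0612) also had Double libraries above WT without passing.

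Sgk1 was at 10.65, 9.73 and 9.98 in WT, at 9.02, 7.96 and 8.11 in Nkx and at 8.91, 7.79 and 8.93 in Double libraries at E18.5. Nkx and Double libraries were all below WT. It fell by 1.58 ± 0.45 in Double (adjusted p = 0.0339) and by 1.76 ± 0.45 in Nkx against WT (adjusted p = 0.0329), 2 comparisons that share the WT libraries. Neither call stood without WT replicate 1 (−1.31 and −1.49), that in Double ended without Double replicate 2 (−1.20) or 3 (−1.77), and that in Nkx without Nkx replicate 2 (−1.56) or 3 (−1.63) or NANCI replicate 3 (−1.76, adjusted p = 0.0505).

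The E18.5 Nkx libraries differed from WT in 4 members, of which 1 rose and 3 fell, where 7.32% of all genes passed (3.67% higher, 3.65% lower). Nr4a2, at 9.04, 9.24 and 9.31 in Nkx, rose by 0.83 ± 0.23 (adjusted p = 0.0464), a call kept in 6 of 21 alternatives and lost without any 1 library other than WT replicate 3 (0.64 to 0.91). Beside Sgk1, the early response gene Ier5 fell by 0.73 ± 0.17 (adjusted p = 0.019) and Nfkbia by 0.75 ± 0.16 (adjusted p = 0.0143). Nkx libraries lay above WT in 3 members (11.7% of all genes) and below in 8 (10.4%), and the median was −0.17. Without WT replicate 2 that median was −0.07, and without WT replicate 3 or Nkx replicate 2 it was −0.28. Egr2, at 9.32, 10.12 and 9.65 in Nkx, was above WT in each library but did not pass (0.92, adjusted p = 0.108). Egr1 had 14.6, 15.43 and 15.38 and a difference of 0.52. The count ranged from 0 members without WT replicate 1 to 9 without WT replicate 3, and was 2 without WT replicate 2, NANCI replicate 3 or Nkx replicate 2 and 1 without Nkx replicate 3.

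Markers of several cell types moved with both E18.5 comparisons against WT. The summed log2 level of leukocyte markers without Lyz1 was 10.53 to 10.76 in WT and 9.83 to 9.93 in NANCI libraries. It was 8.56 to 8.79 in Nkx and 8.22 to 8.62 in Double libraries. Of the 11 leukocyte markers measured, Lyz1 included, 5 fell in Nkx and 9 in Double, with none higher. Endothelial markers ranged over 12.65 to 13.09 in WT, 12.05 to 12.32 in Nkx and 11.59 to 12.01 in Double libraries, and 3 of 8 fell in Double. Ptprc, the gene of CD45, was at 6.17 to 6.84 in WT and 1.92 to 4.98 in Double libraries, and up to 3 leukocyte markers were at the lowest value of a Nkx library and 2 of a Double library. Alveolar type 2 markers ranged over 20.36 to 20.70 in WT, 19.52 to 20.04 in Nkx and 18.94 to 19.66 in Double libraries, and 2 of 10 fell in Nkx and 9 in Double. Ciliated markers ranged over 14.54 to 14.97 in WT and 13.59 to 14.12 in Double libraries, where 4 of 10 fell. Of 8 mesenchymal markers, 2 fell in Nkx, and 4 fell and 2 rose in Double. Of 10 alveolar type 1 markers, 3 fell in each. Of 12 general epithelial markers, 1 rose in Nkx and 4 in Double, with none lower. Of 8 secretory markers, 2 rose and 1 fell in each. The 12 genes of the mitochondrial genome summed to 19.67 to 20.52 in WT, 20.61 to 20.95 in Nkx and 20.69 to 20.85 in Double libraries. Of these, 2 rose in Nkx, and 4 rose and 1 fell in Double. The part of these shifts in the member differences was not tested.

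Between E18.5 Double and Nkx libraries no member passed, and 0.00727% of all genes did (1 gene). The values leaned one way: 34 of 36 members were above 0, against 49.8% of all genes, with a median of 0.34 against 0. Double libraries were above all Nkx libraries in 8 members (4.7% of all genes) and below in 0 (3.91%). At an unadjusted p under 0.05 there were 6 members, where 4.07% of all genes reached it. The largest differences were those of Csrnp1 (0.62), Atf3 (0.59), Nr4a1 (0.54) and Fosb (0.52), each with an adjusted p of 1.0.

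E18.5 NANCI libraries, the only group without an Nkx2.1-GFP allele beside WT, had 0 members past the threshold by limma, where 0% of all genes passed, and 0 also without limma's intensity trend. At an unadjusted p under 0.05 there were 14 members, all lower, where 3.1% of all genes reached it. Of the 36 members, 27 were below 0 and 9 above, with a median of −0.34 against 0.01 over all genes. In 8 members every NANCI library was below every WT library (3.3% of all genes) and in 0 above (2.97%). Atf3 had the smallest adjusted p, 0.781, at 14.42, 14.81 and 14.47 in WT and 13.17, 13.66 and 13.89 in NANCI libraries. Its groups did not overlap, with a difference of −0.99 ± 0.22. Jun was at 13.81, 13.97 and 14.23 in NANCI libraries, all below WT, a difference of −0.45. Dusp1, at 13.65, 13.71 and 13.32 in WT and 12.47, 12.95 and 13.08 in NANCI libraries, differed by −0.73. Fos and Egr1, at −0.10 and 0.03, did not share the lower values.

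NANCI replicate 1 was below the WT mean in 35 of 36 members and the other two NANCI libraries in 23 each. Without that library the median over the members was −0.24. All NANCI libraries were of male pattern, and with the sex covariate the median was −0.29. Endothelial markers summed to 12.65 to 13.09 in WT and 12.74 to 13.17 in NANCI libraries. The leukocyte markers without Lyz1 were lower in every NANCI library, as given above. Of 8 mesenchymal markers, 7 were below 0 with a median of −0.55, and their summed level was 10.95 to 11.63 in WT against 10.76 to 11.00 in NANCI. No marker of these 3 cell types passed in NANCI against WT, and their part in the member differences was not tested.

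Set side by side, the Double against WT differences had opposite signs at the 2 ages in 20 of the 36 members measured at both, each age from its own fit. In 17 members the difference was positive in the embryo and negative in the adult, a pattern shown by 15.2% of 13034 genes, and in 3 it was the reverse (2415 genes). The signs were positive at both ages in 6 members (37.1%) and negative at both in 10 (29.1%). Most of these signs rest on differences that passed at 1 age or at neither. Egr2 and Nr4a1 were the 2 members that passed at both ages, higher in the embryo and lower in the adult. With the sex pattern as a covariate neither passed in the adult. The Nr4a1 call was kept in 9 of 21 alternatives at E18.5 and in 12 of 19 in the adult. That of Egr2 was kept in 20 of 21 and in 16 of 19. The Egr2 log2 fold change was 1.41 ± 0.32 at E18.5 and −1.19 ± 0.36 at 6 months, and that of Nr4a1 0.87 ± 0.26 and −1.42 ± 0.45. Fosb (0.75 and −2.28) and Klf2 (0.92 and −2.03) had groups that did not overlap at either age, in opposite directions, but passed only in the adult. Fos (0.43 and −1.35) and Jun (0.35 and −1.39) had the same pair of signs. Sgk1 (−1.58 and −0.53) was negative at both ages, Nr4a2 (1.06 and 0.63) and Myc (0.66 and 1.28) positive at both. The age, the enrichment method and the separate normalization differ together. The sex patterns, too, were alike between WT and Double at E18.5 but not at 6 months. The difference between the ages was therefore not tested, and these causes cannot be told apart.

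For Nkx against WT the signs ran the other way. In 22 of 36 members the difference was negative in the embryo and positive in the adult (23.5% of all genes), and in 2 the reverse (24.1%). Sgk1 had the widest gap, at −1.76 ± 0.45 and 0.39 ± 0.23, and Gadd45b followed the same signs at −0.30 and 1.02. No member passed at both ages. The adult WT replicate 3, low in most members, enters every adult difference from WT.

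**Figure D4:**
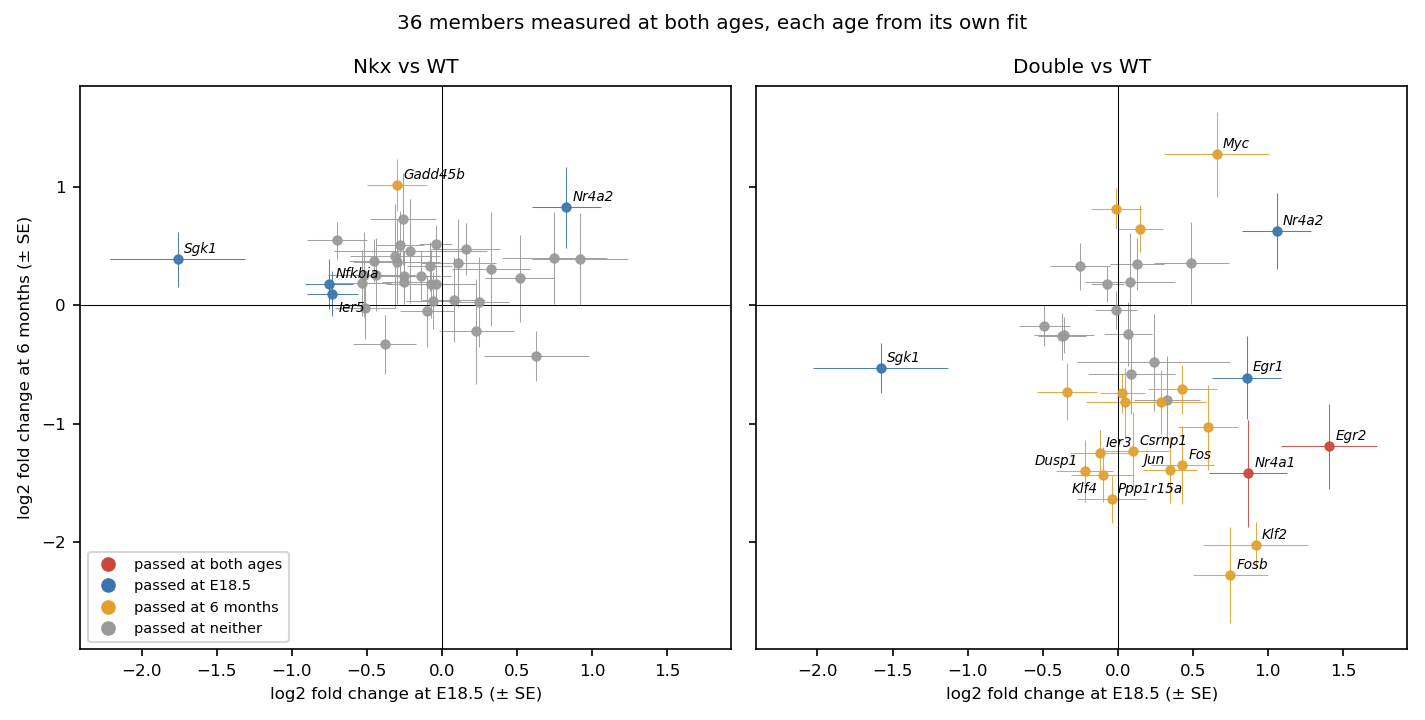
Log2 fold change (± SE) at E18.5 on the horizontal axis and at 6 months on the vertical axis for the 36 members measured at both ages, for Nkx against WT (left) and Double against WT (right), coloured by the age at which a member passed. In the right panel Egr2 and Nr4a1 (red) lie in the lower right, at 1.41 and −1.19 and at 0.87 and −1.42, and 17 members share that quadrant.

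The wider pathway was read from lists of other genes. Against WT, the share of all genes that passed was 36.3% in adult Double and 14.6% in E18.5 Double. It was 7.32% in E18.5 Nkx and 2.63% in adult Nkx against WT, and 21.7% in adult Double against Nkx. In adult Double against WT the upstream kinases and factors, AP-1 partners and further dissociation response genes did not exceed that share. Of 31 upstream kinases and factors, 4 rose and 4 fell in adult Double against WT. Among them Rps6ka1, an S6 kinase downstream of ERK, rose by 0.93, while the ETS partner of serum response factor Elk3 fell by 0.75 and the p38 target kinase Mapkapk2 by 0.59. In E18.5 Double libraries 1 of 31 rose (the p38-activating kinase Map2k6, by 1.30) and 1 fell (the EGF receptor gene Egfr, by 0.98). Of 19 other MAPK feedback inhibitors, 11 fell and 0 rose in adult Double against WT, with a median of −0.96. Spry4 and Spry2, inhibitors of receptor tyrosine kinase signals, fell by 1.94 and 1.91, and the ERK phosphatase gene Dusp4 by 1.76. Of 17 such inhibitors at E18.5, 5 fell and 0 rose in Double, with Dusp4 at −2.31, and 2 fell in Nkx, with Dusp4 at −2.49. In adult Double against Nkx 9 of 19 fell. Dusp4 was lower in Double at both ages, unlike Egr2 and Nr4a1.

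Of 12 AP-1 partners measured in adults, 2 rose and 2 fell in Double against WT, with Maf (−1.96) and the lymphoid AP-1-like factor gene Batf (−1.92) lower and the oxidative stress factor Nfe2l2 higher by 0.63. Nfe2l2 also rose in E18.5 Double, by 0.44, with the small Maf gene Mafg (0.55). Of 31 further dissociation response genes, 2 rose and 4 fell in adult Double against WT, where 36.3% of all genes passed. Among these Bhlhe40, a repressor of clock genes, rose by 0.87 and Nfkbiz, a nuclear IkB protein, fell by 0.83. In E18.5 Double 2 rose and 1 fell, where 14.6% of all genes passed. Among them the chaperone gene Dnajb1 was at 1.23 and the metallothionein gene Mt2 at −1.36. Of 17 secreted and delayed response genes, 7 rose and 2 fell in adult Double against WT. The epidermal growth factor family ligand gene Ereg rose by 4.05, the cytokine gene Lif by 2.38 and the urokinase receptor gene Plaur by 2.20. At E18.5, 4 of 13 rose and 1 fell, with the matrix gene Thbs1 at 1.83, Plaur at 1.78 and Lif at −1.69. No gene of these lists passed in E18.5 NANCI against WT or in E18.5 Double against Nkx, and 2 passed in adult Nkx against WT, both higher.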

How the data were processed

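RNA of mouse lung epithelium was measured in 22 libraries, 12 at E18.5 and 10 at 6 months, grouped by the genotype and age in the labels. The deposited files hold 1 log2 value per Ensembl ID and library. The authors' steps are named only in part: STAR, limma and the build mm9 are listed in the submitters' processing notes, without versions or roles. Values of equal rank hardly differ between libraries of an age (median SD 0.00187 at E18.5 and 0.00242 at 6 months), so the deposited log2 values were taken as quantile-normalized within each age. There are 13750 genes at E18.5, 15958 at 6 months and 13034 in both. Symbols came from GENCODE on GRCm38 for 99.2% and 96.2% of IDs. The sources used here give no read totals, library construction or strandedness, so depth gives no interval, and members that overlap other genes are uncertain to that extent.

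For each age 1 limma 3.58.1 model (R 4.3.3, intensity trend) was fitted to all groups and genes, with 7 contrasts and Benjamini-Hochberg adjustment over all genes of the age. The 2 comparisons with WT at 6 months and the 3 at E18.5 share WT libraries. On simulated data for Double against WT, 50 of 100 genes changed by 1 (log2) and 87 of 100 changed by 2 were recovered at E18.5 (13750 genes), and 63 and 89 at 6 months (15958 genes). There were 6 and 3 false calls. The simulation had independent errors and changed far fewer genes than passed in the data, which makes the adjusted threshold stricter. Its shares are therefore not the power of the real comparisons. Libraries with the same replicate number were taken as paired where the deviations of all their pairs correlated over 0.1. That held in 1 comparison, E18.5 Double against Nkx (0.298, 0.504 and 0.18), as a hint from the data and not from the labels, and its block changed no member's call. The members and lists were chosen with earlier results of these data known. Every member is accounted for by role class. Values in every library are given for up to the 4 largest passing members of each class, for members passing in opposite directions at the 2 ages, and for Fos, Jun and Egr1. Of other lists the counts and up to 3 largest passing genes are named. Summed marker levels are log2 of summed linear values. Alternatives were another variance model, 2 groups alone, a filter on low means, a pseudocount of 32, another centring, a sex, depth or replicate term, leaving out each library, and libraries of 1 sex pattern.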

Additional observations from a re-analysis of the deposited data

Results flagged for a closer look

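In the adult Double group, Klf4 had 1 library (replicate 4) far above the other 3, at 10.96, and Dusp5 likewise, at 9.67. These were 2 of 39 members tested for a library that stands apart among the 4, and chance marks about 1 group in 20. For 5 members every library of a genotype moved one way from WT in the embryo and the opposite way in the adult. The adult minus embryo difference in log2 fold change was −3.03 for Fosb, −2.60 for Egr2 and −2.94 for Klf2 in Double mice, and 1.24 for Maff and 2.15 for Sgk1 in Nkx mice. These differences between the ages were not tested.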

How the results depend on the processing

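Of the 52 calls of single members, 15 were kept in every alternative and 0 reversed sign. Over all alternatives 839 of 1005 values kept their side of the threshold. The number of members passing in E18.5 Nkx against WT, 4, became 2 without the intensity trend and 1 with those 2 groups alone. In E18.5 Double against WT, 5 became 3 without the trend, 3 with 2 groups alone and 2 with a depth term (the number of distinct low values). In adult Nkx against WT, 1 became 0 without the trend. In adult Double against WT, 22 became 12 with a sex term. Between libraries of female pattern alone, chosen after seeing the data, 0 passed in E18.5 Nkx, 0 in E18.5 Double, 0 in adult Nkx and 4 in adult Double against WT. Leaving out 1 library at a time gave 0 to 9 members in E18.5 Nkx, 2 to 7 in E18.5 Double, 0 to 2 in adult Nkx and 14 to 24 in adult Double against WT, 14 to 25 in adult Double against Nkx, and 0 in the E18.5 NANCI and Double against Nkx comparisons. The cause of these changes was not tested, beyond the smaller number of libraries.

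Replicate numbers are shared between groups. Deviations of same-numbered libraries correlated at −0.285 to 0.504 at E18.5 (6 of 18 pairs over 0.1) and −0.302 to 0.128 at 6 months (1 of 9). All 3 pairs were over 0.1 only between E18.5 Nkx and Double, where 0 members passed with the replicate block too. With a replicate block 8 members passed in E18.5 Double, 5 in E18.5 Nkx, 0 in adult Nkx and 19 in adult Double against WT, and 19 in adult Double against Nkx. Depth is unknown and limits the low genes Egr3 and Dusp2 most.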
